A study of Mus musculus with 6 samples.

Results

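The genes described are those of the type IX and type XI collagens, Col9a1, Col9a2, Col9a3, Col11a1 and Col11a2, read here through the open chromatin around them in ATDC5 cells. ATDC5 is a clonal mouse line that came from a teratocarcinoma and is used as a model of cartilage formation; the labels call the cells pre-chondrocytes. The assay was ATAC-seq: the enzyme Tn5 transposase cuts DNA where chromatin is open and leaves sequencing adapters there. The members were all peaks whose summit fell in 1 fixed window per gene on GRCm39, 5 windows of 100 to 350 kb and 920 kb in all. The windows held 62 of the 78698 regions built from the strongest peaks of the 6 libraries: 20 at Col9a1, 7 at Col9a2, 11 at Col9a3, 9 at Col11a1 and 15 at Col11a2.

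There were 3 groups of 2 libraries. Day0 cells are labelled control, and Day3 and Day10 cells are labelled as differentiating. Per the labels' protocols, every group was plated as dense droplets and differentiation medium contained beta-glycerophosphate and ascorbate-2-phosphate; the labels name no mutation or transgene in any group. The replicates are described as independent biological samples, sequenced as 75 bp single-end reads. The cells are 1 clonal line, which limits them as a model of chondrocytes.

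Type IX and type XI collagens are minor components of cartilage fibrils, whose bulk is type II collagen. Type XI collagen, built from chains encoded by Col11a1, Col11a2 and Col2a1, lies largely inside the fibril and is needed to start fibrils and limit their width. Type IX collagen, built from chains encoded by Col9a1, Col9a2 and Col9a3, sits on the fibril surface and links it to other fibrils and matrix proteins. Chondrocytes express these genes, and the transcription factor SOX9 with its partners SOX5 and SOX6 is known to act through enhancers near several of them.

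Each region was a summit with 250 bases on either side. Ranks follow the authors' -log10 p within a library, so rank 1 is the strongest, and a peak within the first 50000 is called strong. Ties went by position, which at the cutoff favours low chromosome numbers. In Day0 replicate 1, peaks with a fold of 16.89 ranked 49231 in the Col9a1 window and 50876 in the Col11a2 window. A region was gained between 2 days when it held a strong summit in both later libraries and every peak overlapping it ranked beyond 100000, or was not listed, in both earlier libraries. Lost is the mirror, and kept means strong in all 4 libraries. Folds are the authors' ratio of a peak over its library's background. Within a library, folds and ranks put the regions in the same order, so they are not separate measures. Folds describe a peak and their values were not compared between days for calls. The highest fold was 95.0 to 97.3 at Day0 and Day3 but 65.7 and 67.4 at Day10. With 2 libraries a day, an exact permutation test cannot give a two-sided p under 0.33, so no p-value is given and each count is read against the share called over all 78698 regions.

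The Day0 lists held 164642 and 164960 peaks, those of Day3 177751 and 177111, and those of Day10 381376 and 390100. The shortest peak was 68 and 72 bases at Day10 against 87 to 90 elsewhere, and peak names with the word lysis occur in the Day3 lists alone. Separate handling of those libraries and the day cannot be told apart. Read totals were not used here. From the even steps of the folds and the shortest width, taken as the length of an extended read, the Day10 libraries were estimated at 1.96 times the depth of Day0 replicate 1, and the Day3 libraries at 1.13 and 1.11 times. Of the strong regions in the windows, 26 of 28 and 29 were strong in both Day0 libraries, 30 of 35 and 34 in both Day3 libraries, and 44 of 47 and 45 in both Day10 libraries.

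Peaks were not placed against gene starts, exons or introns, since no annotation of the files' build was used. A region is therefore given by its position, and cannot be assigned to the collagen gene rather than to a neighbour. In the RefSeq gene table, which is on GRCm38.p6, the nearest coding genes are Fam135a and Col19a1 around Col9a1, Smap2 and Zmpste24 around Col9a2, Ogfr and Tcfl5 around Col9a3, Rnpc3 and Olfm3 around Col11a1, and Rxrb and H2-Oa around Col11a2. Col11a1 is the longest of the 5 genes in that table, at 190.3 kb, followed by Col9a1 at 75.2 kb, Col11a2 at 27.8 kb, Col9a3 at 24.1 kb and Col9a2 at 15.8 kb. The defining marker genes of the cells could not be placed either, so the label pre-chondrocyte was not checked.

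The bases before the annotated starts are shown for Col9a1 and Col11a1, whose windows gained 8 and 4 regions by Day10. They are also shown for Col9a2, whose window of 7 regions gained none. They are from RefSeq on GRCm38.p6, plus strand, 5' to 3', and end just before the earliest annotated start; their coordinates are not comparable with the peak positions. Of the 5 genes, 4 had an entry. Capitals mark GC boxes, the letters GGGCGG or their reverse complement CCGCCC.
Col9a1, chr1:24177360-24177588: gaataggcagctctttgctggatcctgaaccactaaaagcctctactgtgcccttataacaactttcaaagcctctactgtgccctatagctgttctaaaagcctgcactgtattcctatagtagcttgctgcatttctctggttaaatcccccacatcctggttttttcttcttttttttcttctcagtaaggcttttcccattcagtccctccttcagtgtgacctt
Col11a1, chr3:114030290-114030478: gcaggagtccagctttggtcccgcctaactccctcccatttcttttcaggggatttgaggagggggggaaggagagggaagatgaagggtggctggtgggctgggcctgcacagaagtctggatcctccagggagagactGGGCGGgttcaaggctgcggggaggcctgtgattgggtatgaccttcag
Col9a2, chr4:121039316-121039565: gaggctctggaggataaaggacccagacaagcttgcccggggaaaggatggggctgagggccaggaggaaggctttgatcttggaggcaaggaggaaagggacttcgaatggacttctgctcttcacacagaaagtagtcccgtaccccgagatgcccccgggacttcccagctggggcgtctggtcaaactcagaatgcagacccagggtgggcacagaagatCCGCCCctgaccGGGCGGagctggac
The Col9a1 sequence had 43.2% G and C, against 60.3% for Col11a1 and 60.4% for Col9a2. The Col11a1 sequence held 1 GC box. The Col9a2 sequence held 1 on each strand, close to its end. Over stretches of equal length before the starts of 32851 RefSeq entries, the GC box was found in 22.6% at 189 bases, the Col11a1 length, and in 32.7% at 250 bases, the Col9a2 length. The string TATAAA of the TATA box, searched on both strands, was in none of these 3 sequences. Most stretches lack it: it was in 8.69% at 189 bases, 11.7% at 229, the Col9a1 length, and 12.4% at 250. The core bound by SOX proteins was searched in the form AACAAT and in the longer form AACAAAG. At 189, 229 and 250 bases the first was found in 7.55%, 8.94% and 9.42% of the stretches. The longer form was found in 3.84%, 4.62% and 5.03%. Neither form, on either strand, was in the 3 sequences. A missing match says only that the letters are not in the stretch.

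Strong peaks in the windows were most numerous at Day10. At Day0 each library had 30 strong peaks with a summit in the 5 windows, at Day3 there were 35 and 34, and at Day10 there were 47 and 45. The Day10 mean was 1.533 times the Day0 mean, where equal numbers of strong peaks per library fix the ratio over the whole lists at 1. Counts of every listed peak went from 98 and 92 through 115 and 124 to 452 and 454, or 4.768 times, against 2.342 times over the whole lists. For peaks whose -log10 q was at least 5, the ratio was 2.753 in the windows and 1.524 in the whole lists.

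The windows differed in this. Col9a1 had 7 strong peaks in each Day0 library, 8 and 5 at Day3, and 16 and 14 at Day10. Col9a3 went from 5 and 4 through 7 and 6 to 10 in both Day10 libraries. Col11a1 went from 3 and 3 through 4 and 4 to 7 and 7. In these 3 windows both Day10 libraries had more strong peaks than any other library. Col9a2 had 5 and 5, then 3 and 6, then 4 and 3, so its Day3 libraries disagreed and Day10 was not higher. Col11a2 had 10 and 11, then 13 and 13, then 10 and 11, with wide peaks at Day10 over several of the earlier summits, as described further on. Every window listed more peaks at Day10, from 2.867 times the Day0 mean at Col9a2 to 8.429 times at Col11a1.

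**Figure D1:**
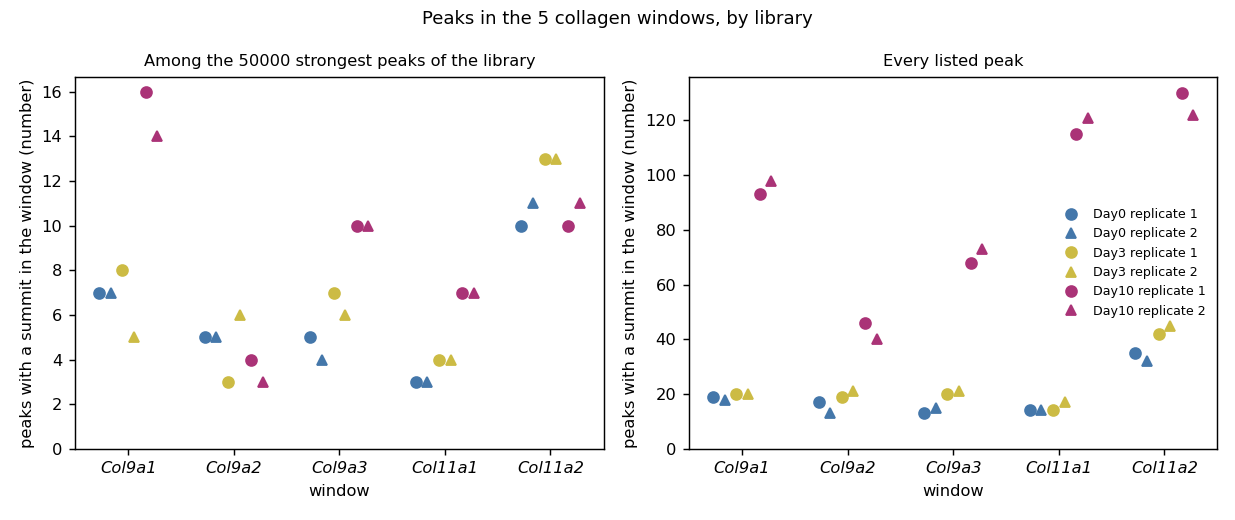
Number of peaks with a summit in each collagen window, among the 50000 strongest of each library (left) and among every listed peak (right); each point is 1 library, circles for replicate 1 and triangles for replicate 2, coloured by day. Strong peaks are most numerous at Day10 at Col9a1 (16 and 14), Col9a3 (10 and 10) and Col11a1 (7 and 7), and not at Col9a2 or Col11a2, while listed peaks are most numerous at Day10 in every window.

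Between Day0 and Day3 few regions of the collagen windows were called as changed. The 62 regions held 1 gained region, at Col9a3, which is 1.61% against 0.543% of all regions. None was lost, against 0.513%. Kept regions numbered 21, or 33.9% against 45.6%. A single call in 62 cannot be set apart from the background.

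Between Day0 and Day10, 19 of the 62 regions were gained, 30.6% against 10.7% of all regions. Col9a1 had 8 of them, Col9a3 had 5, Col11a1 had 4, Col11a2 had 2 and Col9a2 had none. These were 40.0% of the regions at Col9a1, 45.5% at Col9a3, 44.4% at Col11a1 and 13.3% at Col11a2. The share at Col11a2 was near that of all regions. With only 7 regions at Col9a2, a count of none cannot be set apart from that share. A single region was lost, at Col9a2, which is 1.61% against 7.99%. With cutoffs of 30000 and 60000 the lost share was 8.51% against 7.88%, so a low share of losses depends on the cutoffs. Kept regions numbered 17, or 27.4% against 34.9%. The median rank of the 62 regions, by the best overlapping peak, went from 55297.5 and 55946 in the Day0 libraries through 46105.5 and 47771 (Day3) to 20758.5 and 21360.5 (Day10). Over all regions it stayed between 36335.5 and 37754.5, so the windows' median was worse than that of all regions at Day0 and better at Day10. A region strong in any 1 library enters the set, and the 62 include the 19 gained. The shift of the median thus partly restates those calls and is not separate evidence. No peak was listed over 17 of the 62 in each Day0 library. A wide Day10 peak over several regions also counts more than once. In bulk cells, a larger share of cells with an open region and a more open region in each cell cannot be told apart.

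Between Day3 and Day10, 11 regions were gained, 17.7% against 7.72% of all regions: 4 at Col9a1, 4 at Col11a1, 2 at Col9a3 and 1 at Col11a2. None was lost, against 3.16% (6.45% against 4.59% when summits alone decided), and 23 were kept, 37.1% against 37.9%. This comparison and the one before share the Day10 libraries, so they do not count as separate evidence.

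Little or no signal at Day0 is required of a gained region by the rule. In neither Day0 library was a peak listed over 16 of the 19, 84.2%, against 69.9% of the 8449 gained regions of the genome. At Day3, 11 of the 19 were still beyond rank 100000 or not listed in both libraries, 7 were in between and 1 was strong in both. These shares, 57.9%, 36.8% and 5.26%, stood beside 66.3%, 30.2% and 3.48% for all gained regions. At Day10 the folds of the 19 ran from 17.75 to 41.26 with a median of 27.82 in replicate 1, and from 19.52 to 41.83 with a median of 29.28 in replicate 2. The medians over all gained regions were 22.5 and 23.2. The peaks were also wider, with medians of 743 and 692 bases against 562 and 582.

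**Figure D2:**
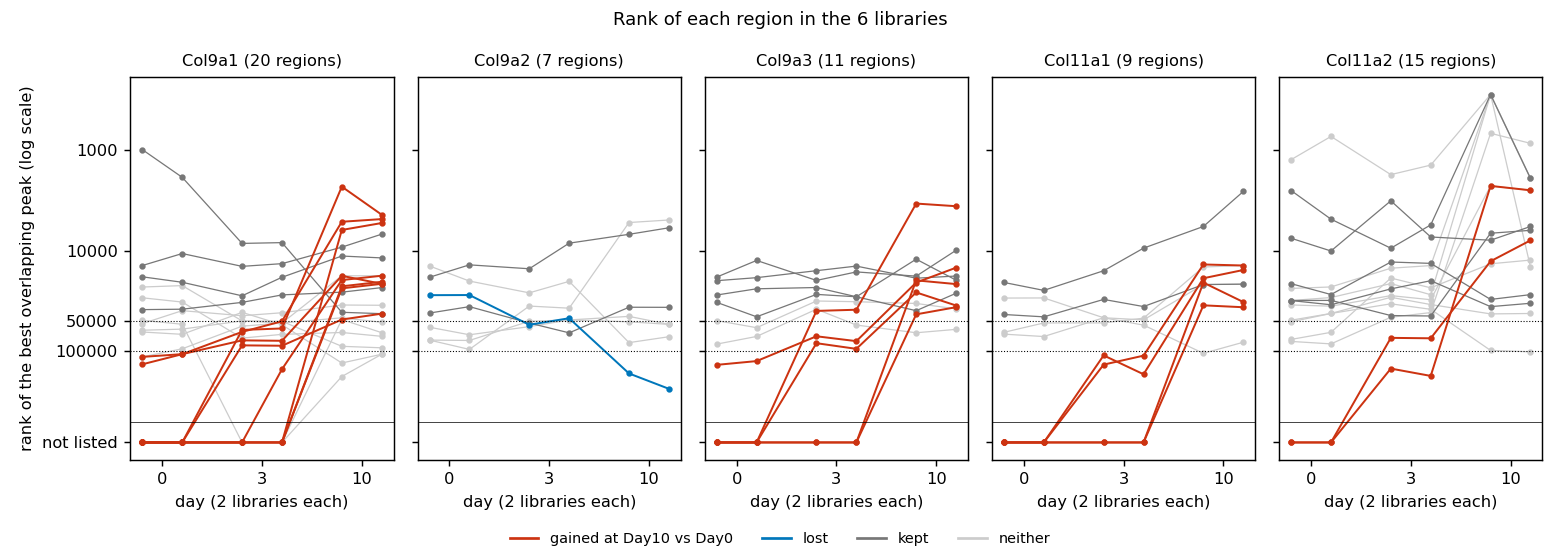
Rank of the best peak overlapping each of the 62 regions in the 6 libraries (log axis, strongest at the top; points below the solid line were not listed), 1 panel per window, 1 line per region, dotted lines at ranks 50000 and 100000. Red lines are the 19 regions gained between Day0 and Day10, absent at Col9a2, and the blue line is the region lost there.

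Col9a1 encodes the chain of type IX collagen that carries a large globular end in its long form, which cartilage uses. Its 8 gained regions lay between positions 24216369 and 24270996 of chromosome 1. The strongest, chr1:24269446-24269946, was not listed at Day0, had folds of 11.68 and 12.23 at Day3, and 40.78 and 39.04 at Day10. Its rank went from 61233 and 59205 at Day3 to 2321 and 4407 at Day10. Another, chr1:24260791-24261291, was not listed in any Day0 or Day3 library and had folds of 36.46 and 38.11 at Day10. Both thus came to lie among the strongest regions of the Day10 lists, the first with a weak peak already at Day3 and the second without one.

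The region chr1:24234858-24235358 changed in width as well as height. Its folds went from 6.41 and 6.93 through 11.12 and 14.46 to 37.42 and 38.58. The peak over it was 147 and 171 bases wide, then 497 and 780, then 2799 and 3348. The part of the greater estimated depth at Day10 in these widths was not tested. Unlike most of the gained regions it had a weak peak in every earlier library. The region chr1:24270496-24270996 followed the same course, with folds of 5.24 and 6.93, then 8.9 and 8.9, then 28.78 and 27.42. The calls of these 2 regions ended when Day0 had to be without any listed peak, when the cutoffs were 70000 and 140000, and when -log10 q replaced ranks.

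Another 3 gained regions of the Col9a1 window were not listed, or listed once, before Day10. The region chr1:24251059-24251559 was listed in 1 earlier library only, with a fold of 4.45 in Day3 replicate 2, and reached 27.82 and 29.28. Its call against Day3 ended when absence meant not listed. The region chr1:24216369-24216869 was listed at Day10 only, with folds of 26.39 and 27.89. The region chr1:24233213-24233713 was also listed at Day10 only, with 25.91 and 27.42. The last of the 8, chr1:24265053-24265553, was the weakest, at 17.75 and 19.52, after 7.78 in both Day3 libraries.

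Other regions of the window were strong on all 3 days. The 3 highest ranked of its 4 regions strong in all 6 libraries lay on the low side of the gained ones. At chr1:24139245-24139745 the folds were 36.7 and 40.44, then 31.69 and 32.81, then 34.06 and 36.72. At chr1:24208443-24208943 they were 33.21 and 31.78, then 22.8 and 28.92, then 32.62 and 33.0. Their folds overlapped between Day0 and Day10, on a scale whose top is lower at Day10. Their ranks were better at Day10 in both libraries, 14062 and 10694 becoming 9240 and 6870 in the first and 18198 and 20618 becoming 11323 and 11817 in the second. At chr1:24141657-24142157 they were lower on each later day, with 55.34 and 53.16, then 37.25 and 37.81, then 19.67 and 19.52, with ranks of 996 and 1876 at Day0 and 40936 and 42225 at Day10. That region stayed just inside the strong ranks and so was called kept. Uncalled regions, named after their values were seen, went both ways. At chr1:24147101-24147601 the folds were 29.71 and 30.62, then 14.46 and 14.46, then 11.03 and 10.69. At chr1:24146369-24146869 they were 25.63 and 24.27, then 9.45 and 10.57, then 14.39 and 13.48. At chr1:24266298-24266798 they were 13.4 and 13.87, then 14.46 and 13.9, then 28.78 and 29.28.

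Col9a3 encodes a chain of type IX collagen that is short and carries no such globular end. Its window held the only region gained by Day3, chr2:180253739-180254239. No peak was listed there at Day0, the folds were 17.79 and 18.35 at Day3, and they were 39.34 and 39.97 at Day10. Its rank of 39650 and 38602 at Day3 became 3415 and 3628 at Day10, so both later days stood apart from Day0 and from each other. The Day3 call ended with the stricter cutoffs of 30000 and 60000.

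The other 4 gained regions at Col9a3 lay with their outermost centres 10.1 kb apart and were called at Day10 alone. The region chr2:180240181-180240681 was listed at Day10 only, with folds of 27.82 and 27.42. The region chr2:180236443-180236943 was likewise listed at Day10 only, with 19.19 and 21.38. The region chr2:180246584-180247084 had weak peaks before, at 5.24 and 5.78, then 10.01 and 8.9, and reached 27.34 and 31.14. Beside them, chr2:180237193-180237693 had folds of 8.34 and 7.23 at Day3 and of 24.95 and 21.85 at Day10. At Day10 these peaks were 479 to 2046 bases wide. The calls at chr2:180236443-180236943 and chr2:180237193-180237693 ended at cutoffs of 30000 and 60000, the first also with wider regions. The call at chr2:180246584-180247084 ended under the same 3 alternatives as the Col9a1 regions with a weak Day0 peak.

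Between or beside these regions lay others that were strong throughout. The region chr2:180242394-180242894 had folds of 26.8 and 29.47, then 25.58 and 22.8, then 32.14 and 28.35. Its peak was 476 and 468 bases wide at Day0 and 1745 and 1088 at Day10, and its folds overlapped between days. Its ranks were 27581 and 23930, then 23237 and 28711, then 12167 and 19638, best in both Day10 libraries. At chr2:180230956-180231456 the folds were 33.21 and 38.71, then 27.8 and 30.58, then 28.78 and 34.39. At chr2:180224222-180224722 they were 32.04 and 33.51, then 30.58 and 32.25, then 28.3 and 29.28. In the first the days overlapped by fold. In the second both Day10 folds lay a little below the other 4, but its ranks of 18778 and 17876 overlapped those of Day0, 19878 and 18556.

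Col9a2 encodes the remaining chain of type IX collagen, and none of its 7 regions was gained at either day. Beside 10.7% of all regions gained by Day10 and 0.543% by Day3, none of 7 cannot be set apart from the background. The lost region, chr4:120877199-120877699, had folds of 26.8 and 27.16, then 13.34 and 15.57, then 6.24 and 4.65. Its ranks were 27677 and 27598 at Day0, and 165514 and 234952 at Day10. The call ended when Day10 had to be without any listed peak and when -log10 q replaced ranks, since a weak peak remained. The region chr4:120945815-120946315 had folds of 36.7 and 32.36, then 23.91 and 27.8, then 11.99 and 13.48, and was not called because its Day10 ranks were 81836 and 71520.

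A region of the Col9a2 window had its highest folds at Day10 without being called. At chr4:120898237-120898737, named after its values were seen, the folds went from 10.49 and 8.09 through 19.46 and 18.91 to 37.42 and 38.58. Its ranks were 77237 and 95532 at Day0, inside 100000, and 5267 and 4970 at Day10. The absence of a gained call at Col9a2 thus depends on the limit for an absent peak. The region strong in all 6 libraries, chr4:120874235-120874735, had folds of 33.21 and 37.56, then 31.14 and 37.81, then 35.98 and 37.65. Its folds overlapped between days, while its ranks were 18377 and 13850, then 15143 and 8439, then 6894 and 5941, best in both Day10 libraries. The median rank of the 7 regions went from 41643 and 35971 in the Day0 libraries through 50250 and 46890 (Day3) to 44925 and 53931 (Day10), so this window did not share the shift of the median seen over the 62 regions.

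Col11a1 encodes a chain of type XI collagen and is also used outside cartilage, where it joins type V collagen chains. Its 4 gained regions were all gained against Day3 too, and none was listed at Day0. The region chr3:113744049-113744549 had folds of 5.0 and 6.12 at Day3 and of 31.18 and 31.61 at Day10. The region chr3:113892942-113893442 had 6.12 and 3.89, then 28.3 and 30.68. The remaining pair were neighbours listed at Day10 only. At chr3:113793355-113793855 the folds were 27.34 and 22.77, and at chr3:113794077-113794577 they were 21.59 and 21.38. The calls of that pair ended at cutoffs of 30000 and 60000, and those at chr3:113794077-113794577 ended also with wider regions. The calls against Day3 at chr3:113744049-113744549 and chr3:113892942-113893442 ended with 70000 and 140000, with absence meaning not listed, and with -log10 q.

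The regions strong throughout at Col11a1 lay close together, with their highest folds at Day10. At chr3:113823845-113824345 the folds were 31.46 and 28.89, then 30.58 and 36.7, then 36.94 and 41.37, and the ranks went from 20698 and 24814 at Day0 to 5763 and 2592 at Day10. At chr3:113825296-113825796 the folds were 19.22 and 18.49, then 21.68 and 19.46, then 26.87 and 27.42. Both Day10 libraries were above the other 4 in each. At a distance of 77.9 kb, chr3:113745968-113746468 had its lowest folds at Day10, with 25.63 and 26.0, then 15.57 and 13.35, then 9.59 and 12.08, and was not called. It lies 1.9 kb from the gained region chr3:113744049-113744549, so neighbouring regions had their highest folds on different days.

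Weak peaks spread over the Col11a1 window at Day10. The window was divided into 35 bins of 10 kb, a size chosen after the values were seen. A bin held a listed summit in both libraries in 6 cases at Day0, 8 at Day3 and 28 at Day10, that is in 17.1%, 22.9% and 80.0%. Over the 272034 bins of all chromosomes the shares were 29.6%, 30% and 39.7%. Col11a1 therefore went from below the share of all chromosomes to above it. For peaks whose -log10 q was at least 5, the window's shares were 17.1%, 17.1% and 60%, beside 28.2%, 26.8% and 33.4%.

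At Day10 an unbroken run of 21 such bins, 210 kb from position 113820001 to 114030000, held 93 and 99 listed peaks. The same stretch held 5 and 5 at Day0 and 9 and 10 at Day3. It was picked as the longest run at Day10, which favours Day10, so these counts describe it and test nothing. Over the whole window, listed peaks numbered 14 and 14, then 14 and 17, then 115 and 121. Strong peaks in the run numbered 2 and 2, then 3 and 4, then 4 and 4. Nearly all of the added peaks were thus weak, with a median fold of 4.32 and 4.18 at Day10. The run is of a similar size to the gene, 190.3 kb in the other build, but was not placed against it. At a -log10 q of at least 5 the longest run was 60 kb, and the stretch of 210 kb held 5 and 5, then 8 and 7, then 32 and 34 such peaks. The estimated depth of the Day10 libraries, 1.96 times, moves with these counts, and its part in them was not tested.

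At Col9a1 the Day10 peaks also clustered. Of 23 bins, 12 held a listed summit in both libraries at Day0, 11 at Day3 and 18 at Day10. The longest run at Day10 was 120 kb, from 24190001 to 24310000, in which listed peaks went from 8 and 8 through 12 and 13 to 80 and 85. Picking the run at Day10 favours that day here too. Strong peaks in that run went from 2 and 2 through 3 and 2 to 13 and 11. Here a larger part of the added peaks was strong than at Col11a1, and the run was equally long at a -log10 q of at least 5. The remaining windows were nearly filled, with 9 of 10 bins at Col9a2, 11 of 12 at Col9a3 and 12 of 12 at Col11a2 at Day10.

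**Figure D3:**
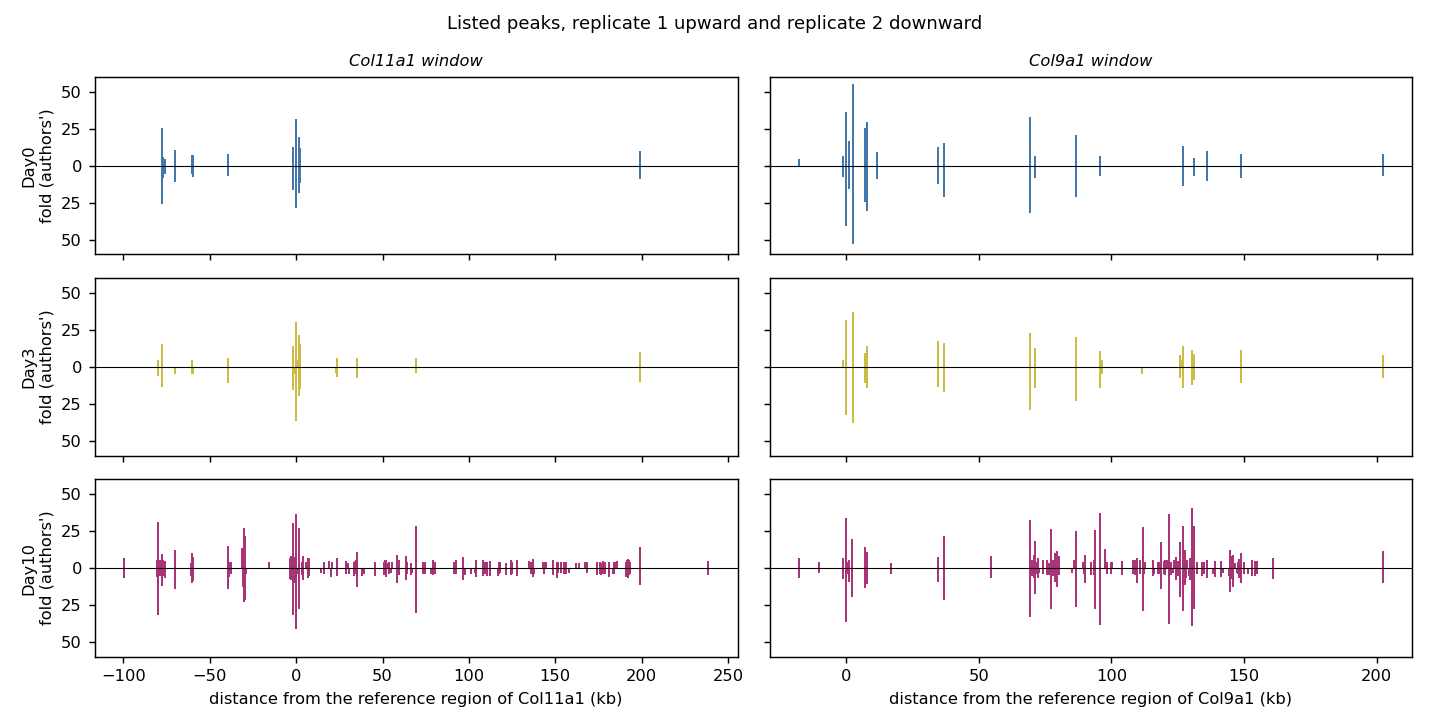
Listed peaks of the Col11a1 (left) and Col9a1 (right) windows by day; x is the distance in kb from the best ranked region strong in all 6 libraries, y is the authors' fold, replicate 1 upward and replicate 2 downward. At Day10 Col11a1 shows many weak peaks over about 210 kb (93 and 99 listed), and Col9a1 shows a cluster with 13 and 11 strong peaks. Both stretches were picked as the longest runs of filled bins at Day10, which favours Day10.

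**Figure D4:**
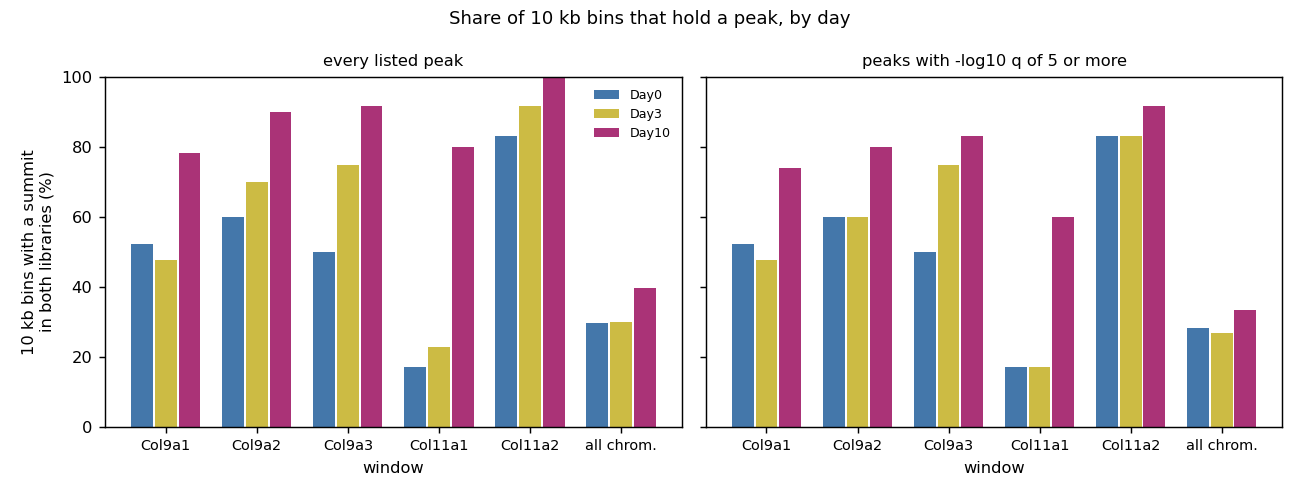
Percent of 10 kb bins with a listed summit in both libraries of a day, for each window and for all chromosomes, counting every listed peak (left) or those whose -log10 q is at least 5 (right); bars are coloured by day. Col11a1 goes from 17.1% at Day0, under the 29.6% of all chromosomes, to 80.0% at Day10, over their 39.7%.

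Col11a2 encodes the other chain that is particular to type XI collagen. The median rank over its 15 regions was the best of the 5 windows at Day0, at 31292 and 34466, and stood at 6725 and 6294 on Day10. It uses the best overlapping peak, and at Day10 several regions took their rank from 1 wide peak. Those at chr17:34246832-34247332, chr17:34250427-34250927 and chr17:34253063-34253563 shared ranks 283 and 1921. The Day10 median thus counts merged peaks more than once, while strong summits numbered 10 and 11 at both Day0 and Day10. The gained region chr17:34257357-34257857 was not listed at Day0, had folds of 5.0 and 3.89 at Day3, and reached 41.26 and 41.83. Its ranks at Day10 were 2282 and 2522, the best of all 19 gained regions in replicate 1 and in replicate 2. Its call against Day3 ended when absence meant not listed. The gained region chr17:34271463-34271963 had no listed Day0 peak, a fold of 10.01 in each Day3 library, and 32.14 and 36.25 by Day10. Between them, chr17:34259801-34260301 had folds of 10.49 and 9.82, then 16.12 and 17.79, then 44.62 and 45.08, but its Day0 ranks of 79609 and 84221 kept it out of the calls. That region was named after its values were seen.

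Peaks in this part of the window widened and merged. Over a stretch of 19666 bases, 34242073 to 34261738, bounded by the edges of Day10 replicate 2 peaks and so chosen after the values were seen, listed peaks covered 35.01% and 36.05% of the bases on Day0, 53.18% and 52.67% on Day3, and 94.44% and 95.87% on Day10. The number of peaks was 11 and 13, then 17 and 20, then 8 and 8. The widest peak measured 1778 and 1775 bases, then 2602 and 2445, then 11368 and 8037. Peaks of 5000 bases or more were rare in the lists, with 4 and 3, then 17 and 15, then 69 and 80 of them. The choice of ends favours coverage at Day10, so these values describe the stretch and test nothing. The Day10 libraries were also estimated at 1.96 times the depth of Day0 replicate 1. The part of depth in the widths and merging, here and in the other windows, was not tested. Over the whole Col11a2 window, covered bases at Day10 were 4.311 times those at Day0, and over the whole lists 1.859 times. Much of this goes with the number of listed peaks, which was 3.761 times that of Day0 in the window. The ratio of covered bases was not particular to Col11a2. It was 4.351 over the 5 windows, from 2.596 at Col9a2 to 6.044 at Col11a1.

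The merging also affects the calls. The region chr17:34246832-34247332 had folds of 54.76 and 57.78 at Day0 and 48.37 and 50.05 at Day3. At Day10 no summit fell in it, and it lay inside the peaks with folds of 46.53 and 42.76 whose summits were at chr17:34250427-34250927. It was neither kept nor lost under the rule, since a strong peak still overlapped it. At chr17:34250427-34250927 itself the folds were 51.27 and 47.96, then 36.7 and 41.7, then 46.53 and 42.76, strong in all 6 libraries. With summits alone deciding, 4 regions of the 5 windows would be lost between Day0 and Day10 instead of 1.

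Outside the stretch, chr17:34219123-34219623 had folds of 43.69 and 41.6, then 45.04 and 39.48, then 35.5 and 38.11. At chr17:34320386-34320886 they were 31.46 and 27.73, then 33.36 and 33.36, then 23.51 and 25.1. Both were strong in all 6 libraries, and the folds of both were lowest at Day10. By rank the first overlapped between days, with 7543 and 10088, then 3207 and 7329, then 7888 and 5766, while the second was at 21285 and 27275, then 12979 and 13388, then 30506 and 27342. Over the 5 windows 16 of 62 regions were strong in all 6 libraries, 25.8% against 32.7% of all regions: 5 at Col11a2, 4 at Col9a1, 4 at Col9a3, 2 at Col11a1 and 1 at Col9a2.

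**Figure D5:**
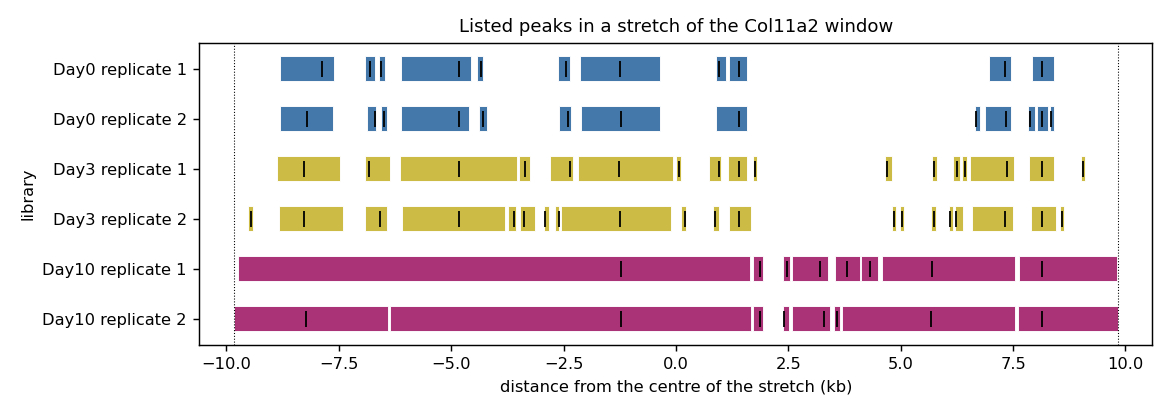
Listed peaks in the 19666-base stretch of the Col11a2 window, 1 row per library coloured by day; x is the distance in kb from the centre of the stretch, bars are peaks from start to end, black ticks are summits, and dotted lines mark the ends. The ends were set at Day10 replicate 2 peak edges, which favours Day10. Separate peaks covering 35.01% and 36.05% at Day0 give way at Day10 to wide peaks covering 94.44% and 95.87%.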

How the data were processed

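ATAC-seq peak lists of 6 ATDC5 libraries, 2 per day, were used as the authors deposited them, 1 list per library with no pooling. Each deposited peak carries a score in whole numbers, a ratio (fold) over the background, and the -log10 p and -log10 q, all the authors' values. The submitters' processing notes name Trim Galore and mm10. The aligner, the peak caller, and any Tn5 shift were not given in the sources used here. Scaffold names in the deposited lists belong to GRCm39, so positions are read as GRCm39, 1-based, and no coordinates were converted.

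Chromosomes 1 to 19, X and Y were used. Peaks were ranked by -log10 p, then fold, then position. Summits of the 50000 strongest peaks of each library gave regions of 250 bases on either side, overlaps going to the better rank. The code of the calls was checked on simulated lists (Python 3.11.15, numpy 2.4.6, pandas 2.3.3). Planted regions there lay far from the cutoffs and were equal between replicates, so the error rate of the rule was not tested. Named regions are, per window, comparison and direction, up to 6 called regions with the best mean rank on the strong day, and up to 3 strong in all 6 libraries; others are said to be named after their values were seen, or complete a count of gained regions or show a decline. Alternatives changed cutoffs, overlap, window size, measure and libraries. Members, windows, lists and rules were chosen with earlier results of these data known. A list of other cartilage genes was planned and not counted, because an annotation of the files' build was not used here.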

Additional observations from a re-analysis of the deposited data

How the results depend on the processing

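No paired analysis was possible because the calls come from a rule with no test, although the labels number the replicates of each day 1 and 2. Gained regions in the windows exceeded the share over all regions between Day0 and Day10 in every alternative run, with 22.8% to 38.7% of the windows' regions against 7.51% to 18.1% of all. Of 31 named calls, 15 held under each of the 13 alternatives run for them. Not all of these could end a call. Having no gap, summits alone, the larger overlap and leaving out a library only relax the rule, so every call was bound to hold there. Only the other cutoffs, the other window sizes, absence meaning not listed and -log10 q could end one.

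With cutoffs of 30000 and 60000, 4 regions were lost between Day0 and Day10 and 1 between Day3 and Day10. These 4 are 8.51% against 7.88% of all regions, so the lower share lost in the windows, 1.61% against 7.99%, did not hold there. The 1 is 2.13% against 2.9%. With 70000 and 140000, 2 were gained and 1 lost between Day0 and Day3, and 1 lost between Day3 and Day10. In that order the shares were 2.53% against 0.826% of all regions, 1.27% against 0.774%, and 1.27% against 3.46%. With no gap between strong and absent, 5 were gained and 2 lost between Day0 and Day3, 6 lost between Day0 and Day10, and 19 gained and 2 lost between Day3 and Day10. The 5 are 8.06% against 7.99% of all regions, at the background. The others, in that order, were 3.23% against 7.65%, 9.68% against 17.5%, 30.6% against 15.0%, and 3.23% against 14.1%. With summits alone, 4 were lost between Day0 and Day10, 6.45% against 10.0%, and 4 between Day3 and Day10, 6.45% against 4.59%, above the background share. With overlap of at least 251 bases, 3 were gained between Day0 and Day3, 4.84% against 3.74%. With absence meaning not listed, 0 were lost between Day0 and Day10, against 1.24%. Between Day3 and Day10, 7 were gained, 11.3% against 4.41%. With -log10 q of 20 and 5 in place of ranks, 1 was lost between Day0 and Day3, 1.06% against 0.837%. Between Day0 and Day10, 30 were gained, 31.9% against 15.8%, and 0 lost, against 4.08%. Between Day3 and Day10, 23 were gained, 24.5% against 12.8%. The causes were not tested.

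Leaving out 1 library at a time gave 19 to 20 gained and 1 to 2 lost between Day0 and Day10, 11 to 12 gained and 0 to 1 lost between Day3 and Day10, and 1 gained and 0 to 1 lost between Day0 and Day3. Regions were still built from all 6 libraries, and the library left out was only no longer required to agree. None of these counts could therefore fall below its main value. A loss between Day0 and Day3 appeared without Day0 replicate 2. The 2 lost between Day0 and Day10 came without Day0 replicate 2, Day10 replicate 1 or Day10 replicate 2, and the 1 between Day3 and Day10 came without either Day3 library or without Day10 replicate 1.

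The ratio of strong peaks between Day3 and Day0, 1.15, became 1.083 with the 30000 strongest, 1.092 with 100000, 1.258 with every listed peak and 1.085 at a -log10 q of 10 or more. Between Day10 and Day0, 1.533 became 1.861, 1.395, 4.768 and 2.161 in that order. Between Day10 and Day3, 1.333 became 1.718, 1.277, 3.791 and 1.992. Leaving out libraries gave 1.133 to 1.167, 1.5 to 1.567 and 1.304 to 1.362. The depth of each library is unknown beyond an estimate, so a peak not listed is not a closed region.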
